A study of Homo sapiens with 36 samples.

Results

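The data describe how the response of BxPC-3 cells to JQ1 differed between 2 and 4 h of exposure. The comparison is the JQ1 effect at 4 h minus the JQ1 effect at 2 h, each effect being the log2 ratio of JQ1 to DMSO at the same time. It rests on 12 of the 36 libraries of the series, 3 each of JQ1 at 2 h, JQ1 at 4 h, DMSO at 2 h and DMSO at 4 h, and it was read across 14988 tested genes of the 29744 in the gene table. BxPC-3 is an established line from a human pancreatic adenocarcinoma, labelled wild type (WT), and every culture stood in RPMI 1640 with 10% serum. JQ1 was given at 3 µM, and the DMSO groups received the solvent. The other libraries hold TRAP1 (TRAP-1 in the protocol, a compound and not the gene of that symbol), TRAP-1-NegB, TRAP-1-NegP and MS78 at the same dose and times. The labels number 3 replicates a group without saying whether they were separate cultures, so the p-values measure the spread between these libraries, which may be technical. One dose and 1 cell line were measured, and a transcript level at 2 time points does not separate synthesis from decay.

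JQ1 occupies the acetyl-lysine pockets of the BET bromodomain proteins, such as BRD2 and BRD3, and displaces them from chromatin. BET proteins help the kinase P-TEFb (CDK9 with cyclin T1 or T2) release paused RNA polymerase II, and HEXIM1 with the 7SK RNA holds P-TEFb in an inactive pool. In many cell types BET inhibitors lower short-lived transcripts of growth genes and raise HEXIM1 and histone transcripts.

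Totals of the 12 libraries ran from 18063421 to 23673306 estimated counts, and no pair of replicates agreed within counting noise. Levels are given as CPM, read counts scaled to library totals adjusted by TMM. Changes are log2 fold changes with their SE, and "called" means an adjusted p under 0.05 from edgeR's quasi-likelihood test with Benjamini-Hochberg adjustment over all tested genes. All 10 epithelial markers were above a mean of 1 CPM, with keratin 7 at 2150 CPM or more in each library. Of 9 mesenchymal markers 2 were above that mean, and of 8 blood and endothelial markers 3. The 3 were CD68 (19.1 to 34.4 CPM), CDH5 (4.6 to 8.88 CPM) and CD14 (1.6 to 4.39 CPM). PTPRC, the leukocyte marker CD45, was at 0 throughout. No test of single libraries was run, and all 12 were kept. In DMSO at 4 h the replicates had 650, 381 and 367 tested genes at 0. In JQ1 at 2 h their TMM factors were 1.0411, 1.0168 and 1.0073. From other compounds, 2 libraries were taken to stand apart, and the values without them are in the closing section.

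JQ1 changed 4314 genes at 2 h, 28.8% of those tested, with 2225 (14.8%) higher and 2089 (13.9%) lower than DMSO. At 4 h it changed 7326 genes (48.9%), 3642 (24.3%) higher and 3684 (24.6%) lower. The difference between the times was itself called in 3900 genes (26%): the JQ1 effect was higher at 4 h in 1975 (13.2%) and lower in 1925 (12.8%), and 801 of the differences were 2-fold or larger. Both effects enter this difference with their own controls. The DMSO libraries changed between 2 and 4 h in 3121 genes (20.8%; 11.4% rose and 9.45% fell), and the JQ1 libraries in 4820 (32.2%). Of the 1975 genes with a higher effect at 4 h, 1036 rose between the times under JQ1 without a called fall in DMSO. A further 385 rose under JQ1 and fell in DMSO, and 413 (20.9%) fell in DMSO without a called rise under JQ1. The other 141 did neither by its own test. A DMSO change in the same direction as the difference, or a JQ1 change against it, was not counted. Of the 1925 with a lower effect the counts, with rises and falls exchanged, were 1092, 216, 488 (25.4%) and 129. TRAP-1-NegB, a compound that changed 154 genes against DMSO at 4 h (1.03%) and 1641 at 2 h (10.9%), was used as a second control: 1273 of the 1975 and 1335 of the 1925 were called in the same direction against it. Each gene below is given with its value against DMSO, and with the TRAP-1-NegB value where that value loses the call.

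Reading the 3 calls together sorted the genes into time classes, which follow from the calls and are a description. Late genes, not called at 2 h, called at 4 h and with a called difference in the direction of the 4 h effect, numbered 952 up and 1162 down. Sustained genes, called in the same direction at both times, numbered 1594 up and 1375 down. Among these the effect grew in 538 and 392, showed no called difference in 1040 and 935, and shrank in 16 and 48; these are called growing, steady and fading. Transient genes, called at 2 h only and with a called difference against the 2 h effect, numbered 196 up and 276 down. Reversing genes, called in opposite directions at the 2 times, numbered 119 ending up and 104 ending down. A further 1308 and 1362 genes were called at 1 time only without a called difference, so their time course is unresolved. Just inside the threshold of the difference lay NDEL1 (0.37), SQRDL (−0.25) and LRRC41 (−0.31), and just outside it MECOM (−0.45), C2orf16 (−2.54) and HINT1 (0.23).

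**Figure D1:**
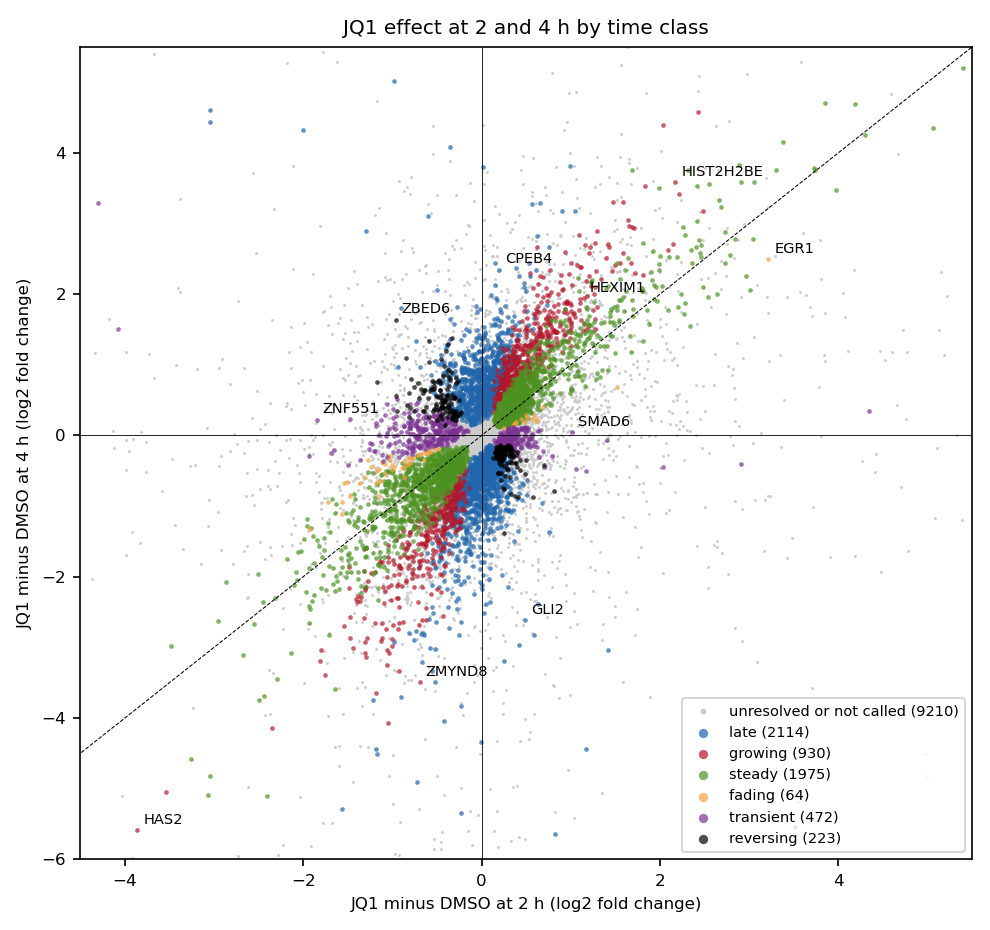
JQ1 effect at 2 h (horizontal axis) against 4 h (vertical axis), both as log2 fold change against DMSO of the same time, 1 point per tested gene, coloured by time class. Points on the dashed line have equal effects; 140 of the 14988 genes lie outside the axes. The growing genes HEXIM1 and HIST2H2BE lie above the line, EGR1 lies below it, and ZMYND8 and GLI2 lie far below it.

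Most genes of the BET inhibitor response were raised by 2 h, and in 9 of 17 the effect grew. Of 17 tested members of the list of BET inhibitor-induced genes, 14 were higher at 2 h and 15 at 4 h, none was lower at either time, and the effect was higher at 4 h in 9 and lower in 1 (clusterin, CLU). The others were 4 steady rises, 1 called at 1 time only and 2 not called at either time. The median effect of the list moved from 1.24 at 2 h to 1.95 at 4 h, and the medians over all tested genes were 0.02 and −0.01. HEXIM1, the P-TEFb inhibitor, stood at 53.3, 67.9 and 58.3 CPM in the DMSO libraries of 2 h and at 136, 121 and 140.1 CPM with JQ1. At 4 h the DMSO libraries held 61.6, 62.5 and 62.4 CPM and the JQ1 libraries 232, 240.3 and 246 CPM. The groups did not overlap at either time, and the DMSO libraries of both times did. The HEXIM1 effect was 1.14 ± 0.081 at 2 h and 1.95 ± 0.081 at 4 h, a difference of 0.80 ± 0.12 (edgeR, adjusted p = 2.79e-07). BRD2, one of the drug's own targets, held 211, 211 and 213 CPM in DMSO at 2 h and 199, 198 and 193 CPM at 4 h, against 456, 453 and 443 CPM and then 686, 664 and 679 CPM with JQ1. Its effect grew by 0.69 ± 0.067 (adjusted p = 1.72e-11).

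The histone cluster genes had a median difference of 0.70, beside 0.69 for the BET inhibitor-induced list, which holds some of the same genes. Of 36 tested members, 16 were higher at 2 h and 21 at 4 h, none was lower, and 9 were higher at 4 h than at 2 h in effect and none lower. Their median effect was 1.17 at 2 h and 2.05 at 4 h. HIST2H2BE, a histone H2B gene, stood at 5.59, 9.91 and 6.1 CPM in DMSO and 35.4, 31.9 and 30.5 CPM with JQ1 at 2 h. At 4 h the values were 5.18, 6.29 and 4.88 CPM in DMSO and 61.4, 65.9 and 69.3 CPM with JQ1. The effect went from 4.51-fold to 12.1-fold, a difference of 1.42 ± 0.26 (adjusted p = 4.4e-05). HIST1H2AC (1.34 at 2 h, 2.22 at 4 h) and HIST1H3H (1.83 and 3.54) grew as well, and HIST1H4H was late (0.39 and 2.37; a difference of 0.81 against TRAP-1-NegB, not called). The RNA was selected for poly(A), so these levels are those of polyadenylated histone transcripts and may not follow histone transcripts without a poly(A) tail. Histone genes are short and near-identical to one another, so reads may be shared among them. The linker histone H1F0 (0.68 and 1.39) and H3F3B (0.63 and 1.09) are not of the clustered kind.

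Among these genes the sequence TATAAA, the core of a TATA box, was common near the start. It was found on either strand within the 250 bases before to 50 after the start in 21 of the 32 histone genes with a RefSeq promoter (65.6%), in 6 of 15 BET inhibitor-induced genes (40%), 5 of them histone genes, and in 6.39% of the 11284 tested genes with a promoter. The RefSeq table (GRCh38.p14) gave a promoter for 75.3% of the tested genes, so the share over all genes is of those alone, and shares by time class are void and not given. A match is a run of letters and not a measured site. The windows below were picked from genes that hold a match and whose effects the text follows through both times: 3 growing genes, and the steady gene CTGF. Other such genes, among them INSIG1, also hold a match and are not shown. AFF4 and EGR1, which the text follows as closely, have a RefSeq promoter without a match. Each runs 5′ to 3′ on the gene's strand, with the match in capitals.
HEXIM1, chr17:45148416-45148474: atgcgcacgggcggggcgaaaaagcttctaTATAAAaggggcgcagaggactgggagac
HIST2H2BE, chr1:149886683-149886742: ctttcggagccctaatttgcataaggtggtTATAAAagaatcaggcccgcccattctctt
HIST1H2AC, chr6:26124111-26124171: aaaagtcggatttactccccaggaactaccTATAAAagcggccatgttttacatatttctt
CTGF, chr6:131951373-131951434: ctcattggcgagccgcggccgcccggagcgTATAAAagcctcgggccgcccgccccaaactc
The first base of the match lies 29 bases before the annotated start in HEXIM1, 30 in HIST2H2BE, 31 in HIST1H2AC and 32 in CTGF. HIST2H2BE has a second match, on the other strand, 212 bases before its start.

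Several subunits of P-TEFb and the super elongation complex rose late, while the subunits of the negative elongation factor NELF that are named here were lower than DMSO at 4 h. Of 30 tested genes for BET proteins, P-TEFb, the 7SK complex and elongation factors, 7 were higher and 7 lower at 2 h, and 15 and 7 at 4 h, and the effect was higher at 4 h in 13 and lower in 6. AFF4, the scaffold of the super elongation complex, stood at 72.4, 74.1 and 65.5 CPM in DMSO and 73.7, 76.8 and 62.7 CPM with JQ1 at 2 h, where the groups overlapped. At 4 h DMSO held 45.9, 33.9 and 38.9 CPM and JQ1 110.3, 97.9 and 96.9 CPM. Its effect was 0.01 ± 0.11 and then 1.36 ± 0.12, and the DMSO libraries fell by 0.84 between the times. CCNT1, cyclin T1 of P-TEFb, was likewise late (−0.06 and 1.07), as were CDK9 (−0.03 and 0.38; a difference of 0.31 against TRAP-1-NegB, not called), AFF1 (−0.20 and 1.10), ELL (−0.05 and 0.52) and BRD3 (0.08 and 0.54; the BRD3 difference was 0.13 against TRAP-1-NegB). EAF1, a partner of the ELL factors, reversed from −0.53 to 0.69, and CCNT2 was transient (−0.71 and 0.29). In the other direction, effects on negative elongation factor subunits were lower at 4 h: NELFA (−0.46 and −1.62), NELFB (−0.21 and −0.82), NELFCD (0.11 and −0.38) and NELFE (0.01 and −0.45). The pausing factor SUPT5H reversed from 0.32 to −0.20. In NELFE and SUPT5H the DMSO libraries rose by 0.29 and 0.41, and the JQ1 libraries had no called change between the times.

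Immediate early genes, which answer growth signals without new protein, were largely raised by 2 h. Of 37 tested members 24 were higher and 5 lower at 2 h, 29 higher and 3 lower at 4 h, and 20 were steady and up, with medians of 1.00 and 1.08. FOS (2.09 and 1.78), JUN (1.44 and 1.42), ATF3 (2.02 and 2.11), NR4A1 (1.96 and 1.91) and KLF2 (2.46 and 2.52) showed no called difference. The list is less steady in other settings: against 9 higher differences here, 19 were called after a GC and length correction and 16 against TRAP-1-NegB, with medians of 0.31 and 0.27 in place of 0.13. EGR1, the zinc finger factor, was the 1 member with a called lower effect at 4 h. It held 16.7, 18 and 18.2 CPM in DMSO and 173, 157 and 161 CPM with JQ1 at 2 h, then 10.4, 12.9 and 15.1 CPM in DMSO and 81.3, 65.5 and 69.5 CPM with JQ1 at 4 h. The groups stayed apart at both times while both declined. The EGR1 effect fell from 3.21 ± 0.11 to 2.49 ± 0.11, a difference of −0.72 ± 0.16 (adjusted p = 0.000329), which against TRAP-1-NegB was −0.37 (adjusted p = 0.0796). Of the list, 9 had a higher effect at 4 h, among them MCL1, the short-lived survival protein of the BCL2 family. MCL1 held 333, 336 and 316 CPM in DMSO and 313, 301 and 323 CPM with JQ1 at 2 h, and 291, 266 and 268 CPM against 570.5, 602 and 574 CPM at 4 h. It overlapped at 2 h and was 2.12-fold higher at 4 h, a difference of 1.15 ± 0.077 (adjusted p = 4.16e-17).

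The MAPK feedback genes, phosphatases and Sprouty proteins that restrain ERK signalling, moved upward as a list. Of 22 tested members, 7 were higher and 7 lower at 2 h and 10 and 5 at 4 h, with the effect higher at 4 h in 12 and lower in 1, and the median went from −0.14 to 0.36. DUSP6 reversed from −0.44 to 0.40, SPRY4 grew from 0.61 to 1.38 (a difference of 0.48 against TRAP-1-NegB, not called), and PHLDA1 faded from −1.03 to −0.29. The ETS factor ETV4 was the member with a lower effect, late, at −0.71. Its DMSO libraries averaged 41.5 and then 58.5 CPM, and its JQ1 libraries 41.6 and then 35.9 CPM. MYC, a transcription factor of cell growth often used to follow BET inhibitors, was lower at both times. It stood at 92.5, 91 and 83.8 CPM in DMSO and 54.9, 50.1 and 54.2 CPM with JQ1 at 2 h, and at 111, 107 and 104 CPM against 68.8, 72.3 and 67.5 CPM at 4 h. The groups did not overlap at either time, and the effects of −0.75 and −0.63 differed by 0.12 ± 0.11 with a 95% interval of −0.10 to 0.34 (adjusted p = 0.47). The MYC difference was called against TRAP-1-NegB (0.30, adjusted p = 0.0326) and after the GC and length correction (0.31, adjusted p = 0.0151).

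**Figure D2:**
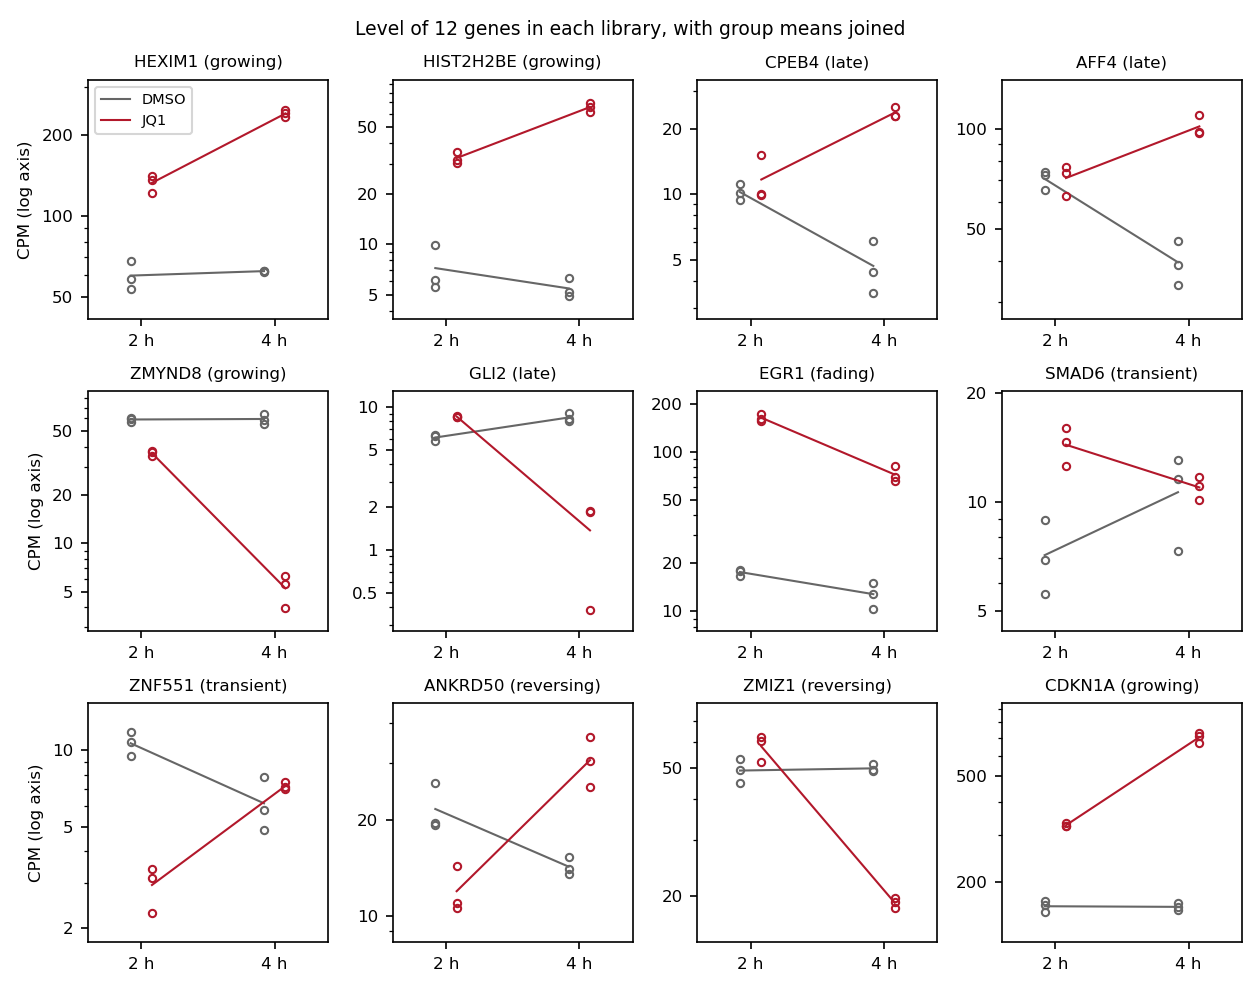
Level of 12 genes in CPM on log axes, 1 open circle per library, DMSO in grey and JQ1 in red at 2 and 4 h, with lines joining the group means and the time class in each title. HEXIM1, HIST2H2BE and CDKN1A diverge further from DMSO at 4 h, ZMYND8 and GLI2 drop at 4 h, EGR1 comes back toward DMSO, and ANKRD50 and ZMIZ1 cross it.

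Among genes with at least 5 CPM on average and JQ1 libraries of 4 h apart from those of 2 h, the 10 largest negative differences ran from −3.10 (GLI2) to −2.12 (DHRS9). ZMYND8, a chromatin reader protein, held 59.7, 56.7 and 60.7 CPM in DMSO and 36.9, 35 and 37.4 CPM with JQ1 at 2 h. At 4 h DMSO held 63.9, 58.8 and 55.6 CPM and JQ1 5.6, 3.93 and 6.24 CPM, 8.85% of the control. The effect went from −0.70 ± 0.11 to −3.50 ± 0.13, a difference of −2.80 ± 0.17 (adjusted p = 3.27e-19), with no called change in DMSO. GLI2, a Hedgehog pathway factor, stood at 5.77, 6.38 and 6.28 CPM in DMSO and 8.59, 8.73 and 8.57 CPM with JQ1 at 2 h, then at 8.29, 9.18 and 8 CPM against 0.381, 1.89 and 1.85 CPM. All JQ1 libraries lay above DMSO at 2 h, though without a call, and below it at 4 h, and the difference was −3.10 ± 0.42 (adjusted p = 6.97e-08). BANP, a DNA-binding nuclear matrix protein, was 83.6% of DMSO at 2 h and 14.2% at 4 h (difference −2.56), with the DMSO libraries rising by 0.70. DHRS9, a retinol dehydrogenase, held 218, 224 and 235 CPM in DMSO and 158, 167 and 175 CPM with JQ1 at 2 h, and 249, 259 and 247 CPM against 38.5, 50.3 and 39.8 CPM at 4 h, a difference of −2.12 ± 0.093 (adjusted p = 4.38e-25). The other genes with the largest negative differences were ANKRD65 (−3.01), RPSAP52 (−2.40), RTN4IP1 (−2.21), FAM83C (−2.18), ZHX2 (−2.15) and PAFAH2 (−2.14). RPSAP52 is a ribosomal protein pseudogene transcript, so its reads may be shared with the parent gene or its copies.

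HAS2, which makes hyaluronan, was already low at 2 h. It held 54, 51.3 and 53.5 CPM in DMSO and 3.93, 3.74 and 3.22 CPM with JQ1 at 2 h, then 47.7, 41.3 and 39.2 CPM against 1.25, 0.664 and 0.748 CPM at 4 h. That is 6.87% and then 2.07% of the control, a difference of −1.73 ± 0.48 (adjusted p = 0.00514). Among pancreatic ductal and epithelial genes 4 of 33 had a higher and 10 a lower effect at 4 h, and after the GC and length correction 12 and 8. Without that correction 13.2% of all tested genes were higher and 12.8% lower. TP63, a basal epithelial factor, went from 77.8% of DMSO at 2 h to 31.4% at 4 h (difference −1.31). GRHL2 was late (−0.21 and −0.93), as were KRT19 (0.06 and −0.34) and KRT17 (0.10 and −0.23). In these 2 keratins the DMSO libraries rose by 0.52 and 0.44, and the JQ1 libraries had no called change between the times. The DMSO libraries of this list rose between the times in 16 genes and fell in 4, beside 11.4% and 9.45% of all tested genes.

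Under the same limits the 10 largest positive differences ran from 2.60 (ZBED6) to 1.90 (GLIPR2), and for several the DMSO libraries fell between the times. CPEB4, an RNA-binding protein of cytoplasmic polyadenylation, held 10.1, 9.41 and 11.2 CPM in DMSO and 15.2, 9.97 and 9.91 CPM with JQ1 at 2 h. At 4 h DMSO held 4.39, 6.12 and 3.51 CPM and JQ1 25.3, 22.9 and 23 CPM. The groups overlapped at 2 h and not at 4 h, and the difference of 2.16 ± 0.28 (adjusted p = 2.47e-08) held a rise of 1.02 under JQ1 and a fall of 1.13 in DMSO. Against TRAP-1-NegB it was 1.24. ACER2, an alkaline ceramidase, had a difference of 2.21, and PAG1, an adaptor of SRC-family kinases, grew from 0.62 to 2.66. LMBRD2 (2.00) and GLIPR2 (1.90) were late, and their differences against TRAP-1-NegB of 0.83 and 0.90 were not called. Among growing genes SLFN5 (0.54 and 2.30), an interferon-linked helicase-like protein, and TM7SF2 (1.09 and 2.84), a sterol reductase, had differences of 1.76 each. HES6 (0.94 and 2.60), of the HES family, had a difference of 1.66.

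CDKN1A, which encodes the kinase inhibitor p21, rose at both times and more at 4 h. It held 163, 169 and 153 CPM in DMSO and 326, 324 and 332 CPM with JQ1 at 2 h, and 161, 156 and 166 CPM against 730.1, 669 and 712 CPM at 4 h. The 2 DMSO groups overlapped, and the effect went from 2.02-fold to 4.37-fold, a difference of 1.11 ± 0.069 (adjusted p = 1.72e-18). Of 47 tested p53 target genes 14 were higher and 6 lower at 2 h, 21 and 8 at 4 h, and 15 had a higher and 3 a lower effect at 4 h. The decoy death receptor TNFRSF10D (1.27 and 2.72) and PMAIP1 (1.26 and 2.00), which encodes NOXA, grew, and the kit ligand KITLG (0.25 and 1.21) was late. Not all targets followed: MDM2 was lower at both times (−0.59 and −0.69).

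The genes without a called difference included strong early rises. CTGF, a matricellular YAP target, held 2.71, 2.73 and 2.11 CPM in DMSO and 16.2, 17.7 and 14.7 CPM with JQ1 at 2 h, then 0.888, 3.77 and 2.49 CPM against 21.3, 22.8 and 22.9 CPM at 4 h. Its effects of 6.43-fold and 9.43-fold differed by 0.55 on the log2 scale with a 95% interval of −0.41 to 1.51 (adjusted p = 0.444), which leaves room for a growth of more than 2-fold; against TRAP-1-NegB the difference was called (1.71, adjusted p = 0.00653). FAM46C, a non-canonical poly(A) polymerase (3.38 and 4.16), BAMBI, a decoy receptor of TGF-beta signalling (2.84 and 2.78), and VASN, a TGF-beta trap (2.67 and 3.33), were steady by the same rule. The VASN difference of 0.67 was called in 4 of 22 other settings, among them TRAP-1-NegB controls (1.10), and the FAM46C difference of 0.78 in 3. MAFA, a beta-cell factor, rose from under 1 CPM in all DMSO libraries to 6.9 CPM or more with JQ1. Of the steady falls, FAM109B held 21.5, 21.1 and 27.2 CPM in DMSO and 4.56, 4.45 and 2.82 CPM with JQ1 at 2 h, and 21.9, 21.9 and 22.4 CPM against 3.21, 3.17 and 4.04 CPM at 4 h, effects of −2.56 and −2.66 with a 95% interval of the difference of −0.65 to 0.44. DOK7, TIGD5, JRK and GIMAP8 were the next.

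Early effects that shrank were few among sustained genes. PPP1R10, a nuclear subunit of protein phosphatase 1, held 53.8, 56.3 and 61 CPM in DMSO and 165, 164 and 162 CPM with JQ1 at 2 h, and 74.2, 65.6 and 63.5 CPM against 101, 111 and 116 CPM at 4 h. The effect went from 2.87-fold to 1.61-fold, a difference of −0.83 ± 0.10 (adjusted p = 3.1e-09), and against TRAP-1-NegB it was −0.84. NUP153, a nuclear pore protein, went from 35.2% to 63.1% of DMSO (difference 0.84), and GTF3C4, a subunit of the RNA polymerase III factor TFIIIC, from −1.27 to −0.36. The weaker fading rises OS9 (−0.41) and CLU (−0.39) had differences of −0.03 and −0.01 against TRAP-1-NegB, neither called. The 48 fading falls had a median gene span of 8.19 kb and 3 exons, and 7 of them (14.6%) a single exon. Over all tested genes with an annotation the values were 28.4 kb, 8 exons and 4.74%. Steady falls had medians of 16 kb and 5 exons, and transient falls 20.9 kb and 5 exons. Of the 48, 27 stayed in the class after the GC and length correction and 16 with TRAP-1-NegB controls.

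Transient falls recovered by 4 h. ZNF551, a zinc finger gene, held 9.43, 10.7 and 11.7 CPM in DMSO and 3.14, 2.29 and 3.42 CPM with JQ1 at 2 h, and 7.85, 4.86 and 5.81 CPM against 7.01, 7.46 and 7.18 CPM at 4 h. The groups were apart at 2 h and overlapped at 4 h, with a difference of 2.08 ± 0.38 (adjusted p = 2.69e-05). The Krüppel-like factors KLF6 (−1.13 and −0.09), KLF3 (−0.81 and −0.07) and KLF5 (−0.51 and 0.07) were transient in the same direction. Of the 14 tested KLF genes 4 had a called higher and none a called lower effect at 4 h. The counts were 4 and 1 both against TRAP-1-NegB and after the GC and length correction. Over all tested genes 13.2% were higher and 12.8% lower. The median difference was 0.005 for the KLF genes and −0.014 over all tested genes. LATS1, the Hippo kinase, went from −1.08 to 0.29, with the DMSO libraries falling by 0.85. Transient rises were smaller. SMAD6, an inhibitor of BMP signalling, held 8.93, 5.59 and 6.92 CPM in DMSO and 16, 12.6 and 14.6 CPM with JQ1 at 2 h, and 7.35, 13.1 and 11.6 CPM against 11.1, 10.2 and 11.7 CPM at 4 h. Its difference of −0.96 ± 0.29 (adjusted p = 0.00931) was −0.80 (adjusted p = 0.0508) without replicate 2 of DMSO at 4 h and −0.67 (adjusted p = 0.0846) against TRAP-1-NegB. Of the 196 transient rises 55 were called in the same direction against TRAP-1-NegB, and of the 276 transient falls 122.

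Reversing genes crossed their controls between the times. ANKRD50, which acts in endosome recycling, held 19.2, 19.5 and 25.9 CPM in DMSO and 14.3, 11.1 and 10.6 CPM with JQ1 at 2 h, and 14, 13.6 and 15.3 CPM against 36.1, 30.4 and 25.2 CPM at 4 h. JQ1 was below DMSO in all libraries of 2 h and above it in all of 4 h, and the difference was 1.95 ± 0.21 (adjusted p = 3.11e-10). PPP1R15B, the constitutive eIF2alpha phosphatase subunit, reversed from −0.37 to 1.30, the co-repressor SKIL from −0.49 to 0.78, and NOTCH2 from −0.29 to 0.82. ZBED6 had the largest positive difference among genes of at least 5 CPM with JQ1 libraries apart between the times (2.60 ± 0.42, adjusted p = 3.93e-06). Its DMSO libraries went from 6.45, 7.14 and 9.35 CPM to 2.12, 2.02 and 2.29 CPM while JQ1 went from 2.2, 5.03 and 4.46 CPM to 5.87, 8.48 and 5.74 CPM. Against TRAP-1-NegB it was 1.03 (adjusted p = 0.0651). ZBED6 lies within an intron of another gene, and reads of the 2 may not be separated. In the other direction ZMIZ1, a transcriptional coactivator, held 53.3, 44.8 and 49.2 CPM in DMSO and 62.3, 60.5 and 52.2 CPM with JQ1 at 2 h, and 49.2, 48.8 and 51.6 CPM against 19.2, 19.7 and 18.4 CPM at 4 h. It overlapped DMSO at 2 h, where its rise was 0.25 (adjusted p = 0.046), and was 38.3% of DMSO at 4 h. TCOF1, the treacle protein of ribosomal RNA synthesis, reversed from 0.25 to −0.76.

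Of 25 genes of the unfolded protein response, 16 were higher at 2 h and 23 at 4 h, and 12 had a higher and none a lower effect at 4 h, with medians of 0.34 and 0.71. By time class 9 were steady, 7 growing and 4 late rises. The sensor kinase ERN1 (IRE1) grew from 2.10-fold to 5.33-fold, DNAJB9 (0.14 and 1.58) and SEL1L (0.09 and 0.88), both of ER-associated degradation, were late, and the chaperone HSPA5 rose from 0.90 to 1.17. HERPUD1 had a difference of 0.71 against DMSO and 0.21 against TRAP-1-NegB. Among heat shock chaperones 7 of 24 had a higher effect at 4 h and 3 a lower one, beside 13.2% and 12.8% of all tested genes. In the integrated stress response list 11 of 28 were higher and 2 lower, 8 and 4 against TRAP-1-NegB, and its member TRIB3 fell from −1.39 to −2.27.

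Genes of ribosome biogenesis had more lower than higher differences. Of 43 tested members 12 were higher and 11 lower at 2 h, 11 and 21 at 4 h, and 3 had a higher and 16 a lower effect at 4 h (median difference −0.20). The late falls included MYBBP1A (0.09 and −0.84) and PES1 (0.06 and −0.65). In DMSO 15 members rose between the times and 6 fell, and against TRAP-1-NegB 9 differences were higher and 8 lower. NCL (0.63 and 0.68), NPM1 (0.45 and 0.64) and NOP58 (0.64 and 0.70) were steady rises, whose differences of 0.36, 0.23 and 0.73 against TRAP-1-NegB were called. Type I interferon-stimulated genes had 4 higher and 9 lower effects at 4 h among 34, beside 13.2% and 12.8% of all tested genes. XAF1 went from 83.3% to 20.2% of DMSO. IFIT2 went the other way (0.75 and 1.98). Of 40 G1/S and replication genes 9 were higher and 10 lower in effect at 4 h, and 14 and 9 after the GC and length correction. The cyclins CCNE1 (0.36 and 1.21) and CCNE2 (0.66 and 1.52) and the repressor E2F7 (−0.11 and 1.26) rose, and MCM2 (−0.03 and −0.55), MCM3 (0.10 and −0.60), MCM5 (0.16 and −0.46) and MCM7 (0.12 and −0.37) of the replicative helicase fell late.

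**Figure D3:**
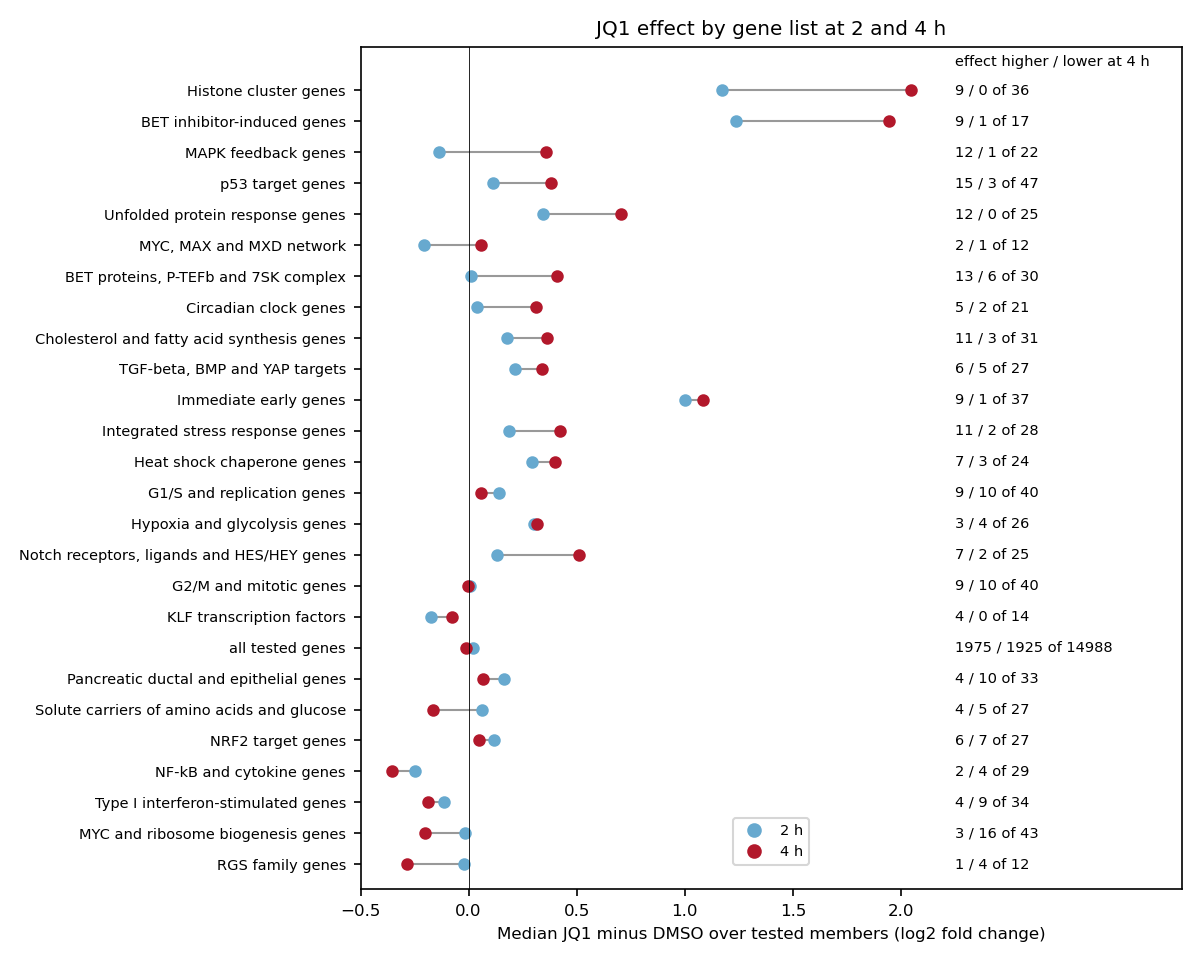
Median JQ1 effect (log2 fold change against DMSO) over the tested members of each gene list with at least 12 tested members, at 2 h (blue) and 4 h (red), ordered by the median difference. At the right stand the numbers of members whose effect was called higher or lower at 4 h than at 2 h, with all tested genes (1975 and 1925 of 14988) for comparison.

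For the cholesterol and fatty acid list the balance of higher and lower differences turned with the control. Of 31 tested members 12 were higher at 2 h and none lower, 17 higher and 5 lower at 4 h, and 11 had a higher and 3 a lower effect at 4 h. Against TRAP-1-NegB 1 difference was higher and 7 were lower, and the median difference was −0.19 in place of 0.20. TRAP-1-NegB itself raised 5 of the 31 against DMSO at 2 h and 13 at 4 h, and lowered none. Over all tested genes it raised 5.08% and lowered 5.87% at 2 h, and raised 0.827% and lowered 0.2% at 4 h. INSIG1, the sterol sensor that retains SREBP in the endoplasmic reticulum, held 27.6, 23 and 27.2 CPM in DMSO and 87.3, 90.8 and 94.6 CPM with JQ1 at 2 h, and 24.7, 26.9 and 23.3 CPM against 118, 120.5 and 123 CPM at 4 h. TRAP-1-NegB libraries averaged 43.6 and then 82.2 CPM. The JQ1 difference of INSIG1 was 0.47 ± 0.11 (adjusted p = 0.000679) against DMSO and −0.50 (adjusted p = 0.000163) against TRAP-1-NegB. IDI1, an isomerase of isoprenoid synthesis, was called against both controls (0.83 and 0.52).

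TRAP-1-NegP and TRAP1 also had effects that differed between the 2 times (3476 genes, 23.2%, and 3295, 22%), and they share the DMSO libraries with JQ1. Subtracting their own change between 2 and 4 h from that of JQ1 removes DMSO from the comparison. At the same dose and times, 557 genes (3.72%) differed between JQ1 and TRAP-1-NegP, 329 (2.2%) with a higher change under JQ1 and 228 (1.52%) with a lower one. Between JQ1 and TRAP1 1069 genes (7.13%) differed, 599 (4%) higher and 470 (3.14%) lower. These are 2 compound pairs, each adjusted over all tested genes, and a gene that missed the threshold is not shown to behave alike. The labels do not give the chemical differences between these compounds.

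Sterol genes were among those with a smaller rise under JQ1. Of the 31 members of that list 14 had a lower change than under TRAP-1-NegP and none a higher one (median −0.49), and 7 a lower and none a higher one than under TRAP1. INSIG1 went from 90.9 ± 3.66 to 121 ± 2.44 CPM (SD, n = 3) with JQ1, from 142 ± 1.54 to 375 ± 17.8 CPM with TRAP-1-NegP and from 87.2 ± 7.69 to 263 ± 14.9 CPM with TRAP1. Its change differed by −0.99 ± 0.10 (edgeR, adjusted p = 3.2e-10) and −1.18 ± 0.10 (adjusted p = 6.6e-13).

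**Figure D4:**
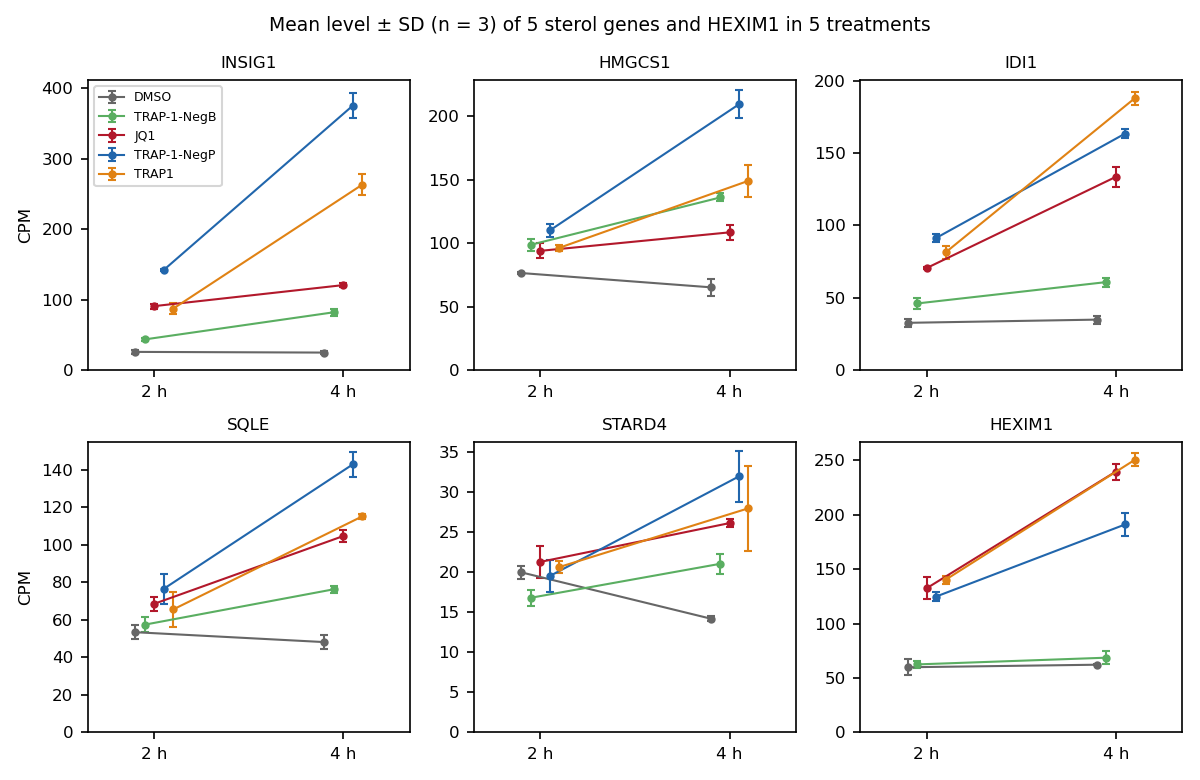
Mean level in CPM with SD (n = 3) of 5 sterol genes and HEXIM1 at 2 and 4 h in DMSO, TRAP-1-NegB, JQ1, TRAP-1-NegP and TRAP1. INSIG1 rises more between the times with TRAP-1-NegP and TRAP1 than with JQ1, and its TRAP-1-NegB mean lies above DMSO at 4 h, while HEXIM1 in TRAP-1-NegB stays near DMSO.

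Mitotic genes set JQ1 apart from TRAP1. Of 40 G2/M genes 25 had a higher change between the times under JQ1 than under TRAP1 and none a lower one, and 4 and 1 compared with TRAP-1-NegP. Against DMSO, the JQ1 difference was higher in 9 and lower in 10. The PLK1 effect went from −0.40 to −1.11 while its JQ1 libraries averaged 107 CPM at both times and its DMSO libraries rose from 141 to 230.03 CPM. FOXM1 was late (−0.08 and −0.78), with DMSO rising by 0.29 and JQ1 falling by 0.41, whereas MKI67 (0.01 and 0.50) and CENPF (0.01 and 0.64) rose late. Of p53 targets 11 of 47 had a lower change under JQ1 than under TRAP1 and none a higher one. GDF15, a stress cytokine, averaged 9.37 and 11.7 CPM with JQ1 at 2 and 4 h and 56.3 and 266 CPM with TRAP1, a difference of −1.92 ± 0.22 (adjusted p = 3.8e-08). IL1B (−1.62) and RGS12 (−1.91) were lower in the same way, and E2F2 (1.81) and ZNF367 (1.92) higher. ZMYND8 fell more under JQ1 than under either, by −1.38 ± 0.17 against TRAP-1-NegP (adjusted p = 2e-07) and −0.90 ± 0.18 against TRAP1 (adjusted p = 0.00042).

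The difference between the times also moved with the base composition of transcripts. Late rises had a median GC content of 42.3% and late falls of 53.6%, beside 48.6% over all tested genes with a transcript, and reversing rises had 41.6%. Late rises also had long genes, with a median span of 60.9 kb beside 28.4 kb. In the lowest of 5 equal groups by GC (30.2 to 41%) 664 of 2812 had a higher and 150 a lower JQ1 effect at 4 h, and in the highest group (58.3 to 74.7%) 181 and 567 of 2811. The controls moved with GC as well: the median DMSO change from 2 to 4 h was −0.20 in the lowest group and 0.27 in the highest, and that of the JQ1 libraries 0.03 and 0.11. Across 14057 genes, which are not independent replicates, the Spearman correlation with GC was −0.25 for the difference, 0.49 for the DMSO change, 0.51 for the TRAP-1-NegB change and 0.05 for the JQ1 change. For the change under the other compounds it was 0.24 with TRAP-1-NegP, 0.28 with TRAP1 and −0.23 with MS78. Whether the GC trend of the controls is biological or arose in library preparation was not tested. After a correction of each library for GC content and length, 4295 differences were called, and 3118 of the 3900 kept their call and direction. HEXIM1, HIST2H2BE, CDKN1A, ZMYND8 and GLI2 kept theirs.

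**Figure D5:**
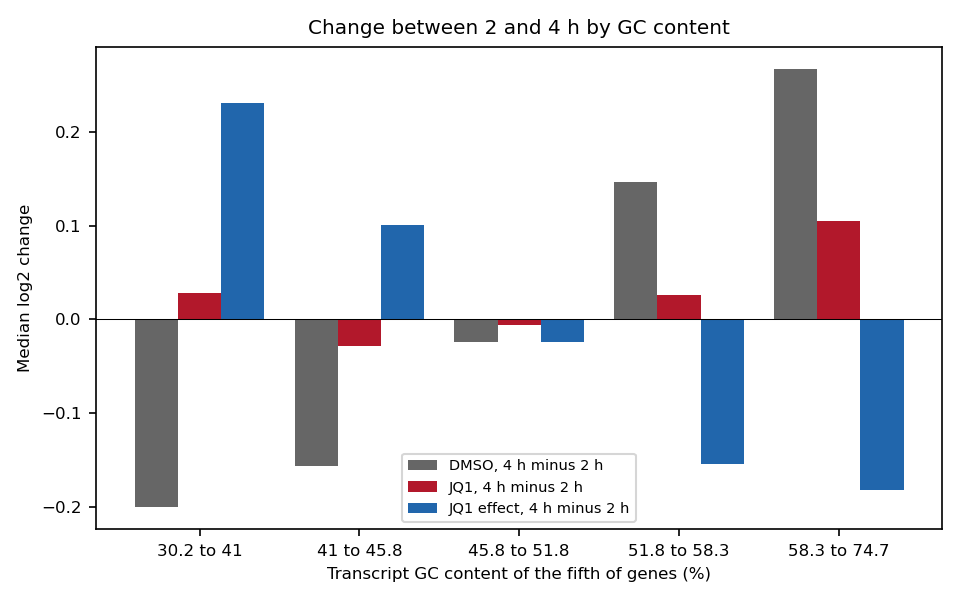
Median log2 change between 2 and 4 h in 5 equal groups of genes by transcript GC content, in the DMSO libraries (grey), the JQ1 libraries (red) and as the JQ1 effect at 4 h minus 2 h (blue). The DMSO medians run from −0.20 in the lowest group to 0.27 in the highest and the difference from 0.23 to −0.18, while the JQ1 medians stay between −0.03 and 0.11.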

How the data were processed

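RNA of BxPC-3 cultures was selected for poly(A) and sequenced in paired reads of 150 bases, per the labels' protocols. The authors quantified it with Salmon 1.10.3 through nf-core/rnaseq 3.18.0 on hg38, per the submitters' processing notes, and deposited estimated counts per gene and length-scaled estimated counts, unrounded. No label or header used here names the annotation release.

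The estimated counts were rounded and filtered with filterByExpr (minimum count 10), which kept 14988 of 29744 genes. They were scaled by TMM and fitted with edgeR 4.0.16 (R 4.3.3) in a quasi-likelihood model with 1 mean for each of the 12 groups, so all 36 libraries share the estimate of the spread. Contrasts were tested two-sided with Benjamini-Hochberg adjustment at 0.05. DESeq2 1.42.0 was an alternative. Counts were simulated gene by gene from these libraries, with 1.5-fold, 2-fold and 3-fold differences between the times put into 67, 67 and 66 genes. Of these 31.3%, 62.7% and 74.2% were recovered, with 4 false calls among 14758 genes. The data held 3900 called differences, and the simulation held no shift that the genes of a library share. Recovery and false calls in the data may therefore differ from these. Transcript GC content, length and exon counts came from GENCODE v29 and promoters from RefSeq.

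The text names the 10 largest called differences of each sign with at least 5 CPM on average and JQ1 libraries of 4 h apart from those of 2 h, the 5 largest of each time class, up to 4 called members of each list and direction, a panel of genes, and the largest differences between compounds. Further list members and steady genes (FOS, JUN, ATF3, NR4A1, KLF2, BRD3, CDK9, AFF1, ELL, CCNT2, NELFB, NELFE, SPRY4, DNAJB9, HSPA5, PMAIP1, KITLG, MDM2, NCL, NPM1, NOP58, CCNE1, CCNE2, MCM7, KRT17, KRT19 and histone genes) were chosen after their values were seen. The comparison and the gene lists were chosen with earlier results of these data known. Some items withheld from this text are not reported here; they remain in the fits and list counts.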

Additional observations from a re-analysis of the deposited data

Results flagged for a closer look

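The JQ1 effect differed between 4 and 2 h in 3900 genes by edgeR's test of the difference, and 223 genes were called in opposite directions at the 2 times. The change between the times differed between JQ1 and TRAP-1-NegP in 557 genes and between JQ1 and TRAP1 in 1069. Groups of 3 libraries are too small for a test of single outlying libraries.

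The genes below differed by the same test and are given as log2 differences. Among the reversing genes the JQ1 effect at 4 h was higher than at 2 h in ZBED6 (2.60), ANKRD50 (1.95), FAM63B (1.93), YOD1 (1.92) and SLC5A3 (1.72). It was lower in ZMIZ1 (−1.63), MAP2K5 (−1.45), SPINK5 (−1.28), NFIA (−1.23) and LRRC45 (−1.15). Against TRAP-1-NegB the differences of ZBED6 and FAM63B were not called.

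Compared with TRAP-1-NegP, the change from 2 to 4 h under JQ1 was higher in FAM72A (1.36), HERC2P9 (1.30), VCPKMT (1.28), MNS1 (1.22) and ZMYM5 (1.19). It was lower in ZMYND8 (−1.38), KAT6B (−1.38), RPSAP52 (−1.23), AKAP10 (−1.12) and LRRC61 (−1.11). Compared with TRAP1 it was higher in ZNF367 (1.92), E2F2 (1.81), ATAD5 (1.61), BMI1 (1.61) and ZNF117 (1.47), and lower in RPSAP52 (−1.96), GDF15 (−1.92), RGS12 (−1.91) and IL1B (−1.62). HERC2P9 and RPSAP52 are pseudogene transcripts and FAM72A has near-identical copies, so their reads may be shared.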

How the results depend on the processing

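The count of 3900 called differences ran from 3430 to 3769 when each of the 12 libraries was left out, was 4198 with DESeq2 and 4596 with only the 12 JQ1 and DMSO libraries. Replicate numbers did not pair the libraries: deviations of same-numbered libraries correlated between −0.038 and 0.082 in 18 pairs, and the replicate block gave 3826 calls, 3806 of them shared. Against 64 fading and 223 reversing genes, the 12 libraries alone gave 126 and 364, and leaving out replicate 1 of TRAP1 at 4 h and of MS78 at 2 h gave 133 and 360. TRAP-1-NegB controls gave 3627 calls, 2608 of them among the 3900, with 41 fading, 120 reversing and 310 transient genes in place of 472. The members changed more than these totals. With these controls 24 of 196 transient rises and 96 of 276 transient falls stayed in their class. So did 43 of 119 genes reversing upward and 14 of 104 reversing downward. Of late genes 454 of 952 rises and 745 of 1162 falls stayed, and of growing genes 340 of 538 and 229 of 392. A GC and length correction, chosen after seeing the data, gave 119 fading genes. Of the 3900 called differences, 128 had the other sign against TRAP-1-NegB and 20 after the GC correction. Among genes picked by the naming rules, signs turned against TRAP-1-NegB for INSIG1 (−0.50), SCD (−0.14), LUM (−0.0736), FTL (−0.0302) and TNFRSF10C (0.72). After the GC correction the sign turned for SLC3A2 (5e-04). No DMSO library held more than 0.588 CPM of LUM or 0.6345 CPM of TNFRSF10C. The cause of these turns was not tested. Of the other comparisons of whole counts 274 stayed within 1.5 times. A median SE of 0.22 limits small differences.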

Other observations

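Notch receptors, ligands and HES/HEY genes had 7 higher and 2 lower JQ1 effects at 4 h among 25 tested. Circadian clock genes had 5 and 2 of 21. TGF-beta, BMP and YAP targets had 6 and 5 of 27, with 11 and 5 after the GC and length correction and 10 and 4 against TRAP-1-NegB. NRF2 targets had 6 and 7 of 27. NF-kB and cytokine genes had 2 and 4 of 29, and 13 of them were lower than DMSO at 4 h beside 7 at 2 h. Of 26 genes of hypoxia and glycolysis 16 were higher at 2 h and 18 at 4 h. By class 11 were steady rises, 2 transient rises and 1 reversed downward. Of the 26, 3 had a higher and 4 a lower effect at 4 h, and 5 and 7 against TRAP-1-NegB. RGS family genes had 1 higher and 4 lower effects at 4 h among 12, and amino acid and glucose carriers 4 and 5 of 27. Called differences made up 26% of all tested genes, 13.2% with a higher and 12.8% with a lower effect at 4 h.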
